A study of Saccharomyces cerevisiae with 4 samples.

Results

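The 10 genes described here act at Start, the point in late G1 at which a budding yeast cell commits to a new division cycle. They encode the G1 cyclins (*CLN1*, *CLN2* and *CLN3*), the subunits of the transcription factors SBF and MBF (*SWI4*, *MBP1* and *SWI6*), the inhibitor *WHI5* and the factor-binding proteins *STB1*, *MSA1* and *MSA2*. They were picked by their known role, as 10 rows of a table of 6692 genes, at a time when the difference between the strains was already known, and *CLN1*, *CLN2* and *MSA1* were among the genes that differed. Their differences are therefore given as a description and no test was made over the 10 genes as a set. All 10 passed the filter on low counts described below.

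The series compared BY4741, a haploid *MATa* laboratory strain of *Saccharomyces cerevisiae* with the alleles *his3Δ1*, *leu2Δ0*, *met15Δ0* and *ura3Δ0*, with the same background in which the *kanMX* marker replaces *SIS2*. *SIS2* encodes a subunit of the enzyme that decarboxylates phosphopantothenoylcysteine in coenzyme A synthesis and an inhibitor of the Ppz1 phosphatase. Each strain was grown as 2 cultures, A and B, to mid-log phase in synthetic complete medium with glucose, and polyadenylated RNA was sequenced with stranded reads. The *sis2Δ* strain comes from the *MATa* knockout collection.

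In the known pathway, Cln3 with the kinase Cdc28 phosphorylates Whi5, which then leaves SBF, and SBF switches on *CLN1* and *CLN2*. SBF is Swi4 bound to Swi6, and it recognises the SCB element, while MBF is Mbp1 bound to Swi6 and recognises the MCB element. Cln1 and Cln2 further inactivate Whi5, which makes the switch rapid.

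The libraries held between 19001619 and 28069619 counts on genes. Genes with at least 0.5 CPM (the count relative to library size, on the usual scale) in at least 2 libraries were tested, which left 5959 genes. Levels are CPM after scaling by TMM, whose factors lay between 0.966 and 1.07. Differences are log2 fold changes from the quasi-likelihood test of edgeR, and p-values were adjusted over all genes tested by the Benjamini-Hochberg method. Standard errors (SE) are not given by this test and were derived from each fold change and its test statistic. A gene is called where the adjusted p is under 0.05. *SIS2* itself was counted 3991 and 2208 times in the wild type, and 6 and 9 times in *sis2Δ*. Of the genes tested, 362 were called. Leaving out wild-type B gave 194, leaving out *sis2Δ* A gave 190 and leaving out *sis2Δ* B gave 985, so the number of calls depended on these libraries. With 2 libraries against 2, the smallest p that exact two-sided permutation allows for any gene is 0.333, so calls rest on the spread that edgeR models across genes. The summed level of 7 a-specific genes was 1670 to 1750 CPM in the wild type and 2290 to 2330 CPM in *sis2Δ*. The summed level of 4 alpha-specific genes was 47.5 and 44.5 CPM in the wild type and 80.1 and 80.4 CPM in *sis2Δ*. Among them *MF(ALPHA)2* did not pass the filter, with 1 and 3 counts in the wild type and 11 and 7 in *sis2Δ*. *MF(ALPHA)1* had 10 and 13 counts in the wild type and 51 and 38 in *sis2Δ*. It reached 0.5 CPM in both *sis2Δ* libraries but not in wild-type A, so it passed the filter through *sis2Δ*. Of these marker genes, 4 of the 7 a-specific and 2 of the 3 tested alpha-specific genes (*SAG1* and the low-count *MF(ALPHA)1*) were called, all higher. Without wild-type A, 2 and 1 were called, and without *sis2Δ* A 5 and 1. Of the marker genes deleted in the background, *URA3* and *MET17* (also called *MET15*) had 0 counts in every library, and *LEU2* had 1 count, in *sis2Δ* B. *HIS3*, of which the *his3Δ1* allele is known to lack only an internal part, had 704 to 924 counts a library and was not called.

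Before the expression values, the upstream sequences of the genes were examined, because SBF and MBF are known to act on several of them. The 800 bases before each start codon of the R64 genome were searched on both strands for the SCB core, CACGAAA or CGCGAAA, and for the MCB core, ACGCGT. The cores can overlap each other. Of 5981 protein-coding genes, 17.1% held an SCB core in this window and 7.64% held an MCB core. Of the 10 Start genes, 6 held an SCB core and 3 of these also held an MCB core. *CLN2* held 3 SCB cores, a number reached or passed by 0.284% of all genes. No core was found in these windows before *CLN3*, *SWI6*, *WHI5* and *MSA1*, which says only that these letters are not there. The single SCB core before *MBP1*, and 1 of the 2 MCB cores before *MSA2*, lie inside the neighbouring genes YDL057W and *ECM4*.

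**Figure D1:**
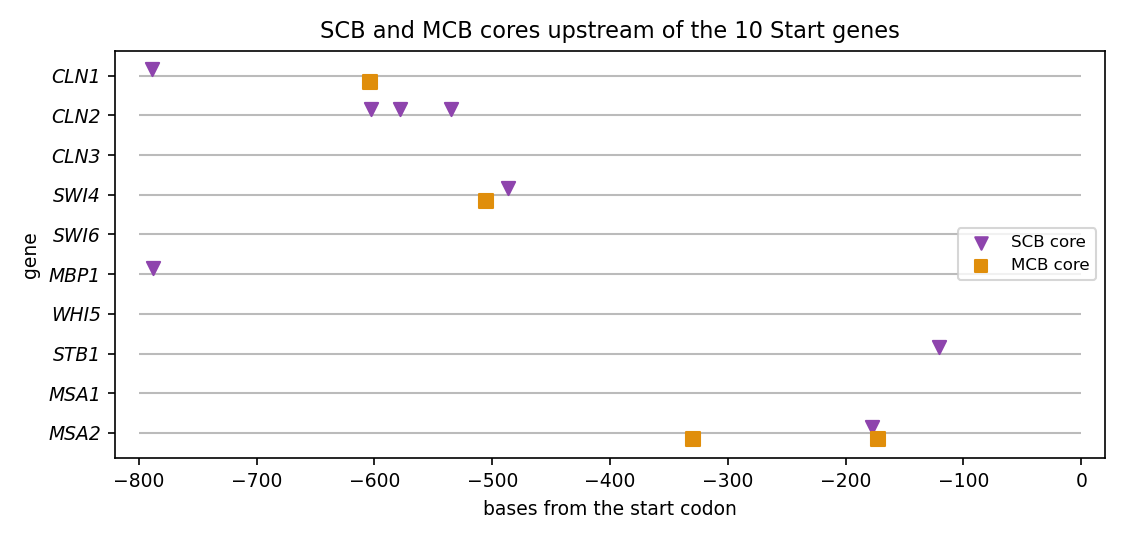
Positions of SCB cores (triangles) and MCB cores (squares) in the 800 bases before the start codon of each of the 10 genes, with the distance from the start codon in bases on the horizontal axis and a row for each gene. The 3 SCB cores of *CLN2* begin at -606, -581 and -538, and 4 genes hold none of either.

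The cores that lie outside other genes are shown with the bases around them. Their letters match the known binding elements of the factors encoded by other members, and binding at these places was not tested. Each sequence is read 5′ to 3′ on the strand of its gene and the cores are in capitals.
CLN2 (chrXVI:67137-67229, minus strand): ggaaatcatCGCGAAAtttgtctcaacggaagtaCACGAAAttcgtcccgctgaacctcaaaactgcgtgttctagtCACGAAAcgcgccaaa
CLN1 (chrXIII:661844-662052, plus strand): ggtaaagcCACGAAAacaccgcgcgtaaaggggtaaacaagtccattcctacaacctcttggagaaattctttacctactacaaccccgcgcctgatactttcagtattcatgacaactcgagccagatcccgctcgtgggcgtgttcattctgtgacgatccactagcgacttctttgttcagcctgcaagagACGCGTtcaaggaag
SWI4 (chrV:386351-386393, minus strand): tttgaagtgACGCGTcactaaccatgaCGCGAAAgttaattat
STB1 (chrXIV:52529-52553, plus strand): ttgatatcaCGCGAAAatgcaagaa
MSA2 (chrXI:583463-583492, plus strand): ggtaattgaCGCGAAACGCGTtaaagtgca
Counted from the start codon, the 3 SCB cores of *CLN2* begin at -606, -581 and -538. In *MSA2* the SCB core and the MCB core share 1 base.

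All 10 genes had a positive log2 fold change in *sis2Δ*, between 0.02 for *SWI6* and 0.75 for *MSA1*. The median over the 10 genes was 0.37, against -0.0050 over all genes tested. *CLN1*, *CLN2* and *MSA1* were called, where 6.07% of all genes tested were called, 2.72% higher and 3.36% lower. For 6 of the 10 genes neither *sis2Δ* library fell below a wild-type one, where 24.5% of all genes tested were separated upward in this way and 28.6% downward, and the libraries overlapped for *CLN3*, *SWI4*, *SWI6* and *WHI5*. Because the genes were listed with this comparison known, nothing is read from these counts. Which of the 10 were called depended on the library left out, as did the number of calls over all genes. In RNA from whole cultures, more transcript per cell and a larger share of cells in late G1 cannot be told apart.

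**Figure D2:**
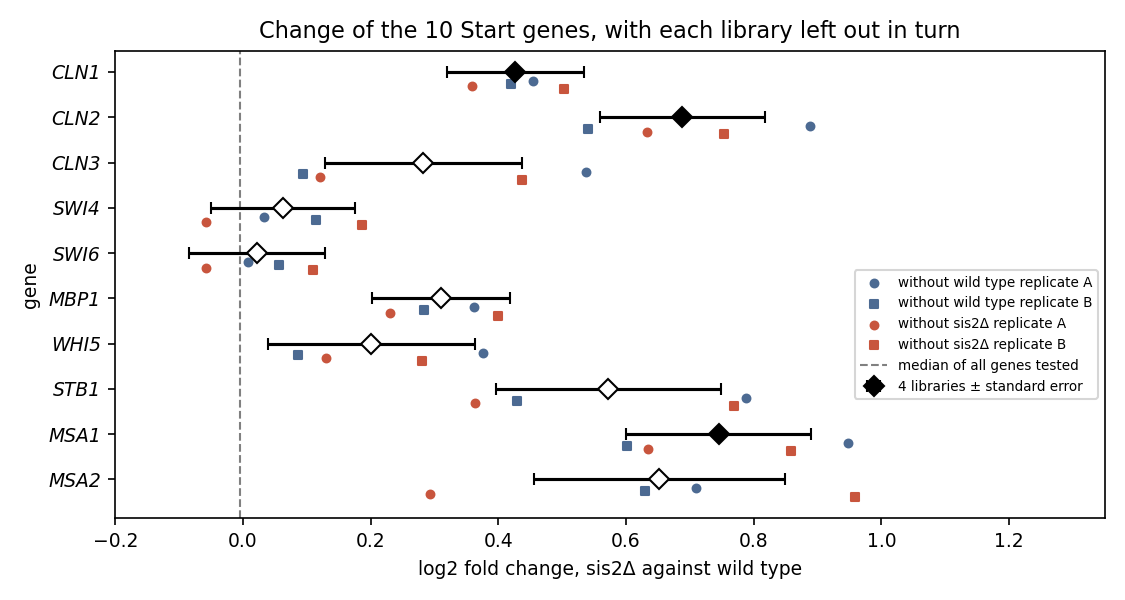
Log2 fold change of each gene in *sis2Δ* against the wild type (diamonds with the SE of the edgeR fit, filled where the adjusted p is under 0.05), and the value with each library left out in turn (small symbols). The dashed line is the median of all genes tested. The diamonds of all 10 genes lie to the right of 0, and the largest gap between left-out libraries is that of *MSA2*, from 0.29 to 0.96.

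*CLN1* (YMR199W, plus strand of chromosome XIII from 662644 to 664284, 1 exon) and *CLN2* (YPL256C, minus strand of chromosome XVI from 64977 to 66614, 1 exon) encode the G1 cyclins made at Start itself, which drive budding and the destruction of the inhibitor Sic1. *CLN2* measured 58.3 CPM in wild-type A, 45.2 CPM in wild-type B, 87.4 CPM in *sis2Δ* A and 79.8 CPM in *sis2Δ* B. The *sis2Δ* libraries stood clear of the wild type, and the wild-type cultures differed from each other by more than the *sis2Δ* cultures did. The fold change was 1.61 (log2 0.69, SE 0.13, adjusted p = 0.0086), and *CLN2* stayed called with any 1 of the 4 libraries left out.

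*CLN1* measured 66.2 and 63.7 CPM in the wild type and 92.1 and 82.7 CPM in *sis2Δ*. Its wild-type cultures lay close together, at 65.0 ± 1.77 CPM (SD, n = 2), and its fold change of 1.34 (log2 0.43, SE 0.11) was smaller than that of *CLN2*. Its adjusted p was 0.0358. The call was lost without wild-type A (adjusted p = 0.0826), wild-type B (0.184) or *sis2Δ* A (0.133), although the log2 fold change stayed between 0.36 and 0.50.

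The change of *CLN2* relative to *CLN1* can be read within each library, where the scaling of libraries plays no part. Per base of coding sequence, there were 0.882 and 0.710 *CLN2* counts for each *CLN1* count in the wild type and 0.951 and 0.967 in *sis2Δ*. The ratio was higher in both *sis2Δ* libraries (mean 0.959 ± 0.0111, SD, n = 2) than in the wild type (0.796 ± 0.122), where the cultures lay far apart. The proteins are 60.4% identical over 523 aligned positions. No 100-base window, the length of a read, of any of the 10 genes occurs elsewhere in the genome, and no annotated gene overlaps them.

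*CLN3* (YAL040C, minus strand of chromosome I from 65778 to 67520) encodes the cyclin at the head of the pathway, whose protein is only 26% identical to Cln1. It measured 67.3 and 48.7 CPM in the wild type and 78.8 and 62.8 CPM in *sis2Δ*. The strains overlapped, since *sis2Δ* B lay below wild-type A, and replicate A was the higher one in both strains. The log2 fold change was 0.28 (SE 0.15, adjusted p = 0.317). It was called only when wild-type A was left out, with a log2 fold change of 0.54 (adjusted p = 0.0354). Among the 3 cyclins, *CLN3* made up 33.7% and 29.6% of the counts per base in the wild type and 29.2% and 26.6% in *sis2Δ*, while *CLN2* made up 31.1% and 29.2% in the wild type and 34.5% and 36.1% in *sis2Δ*. The share of *CLN3* was thus lower, and that of *CLN2* higher, in both *sis2Δ* libraries, with wild-type B and *sis2Δ* A close together for *CLN3*.

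**Figure D3:**
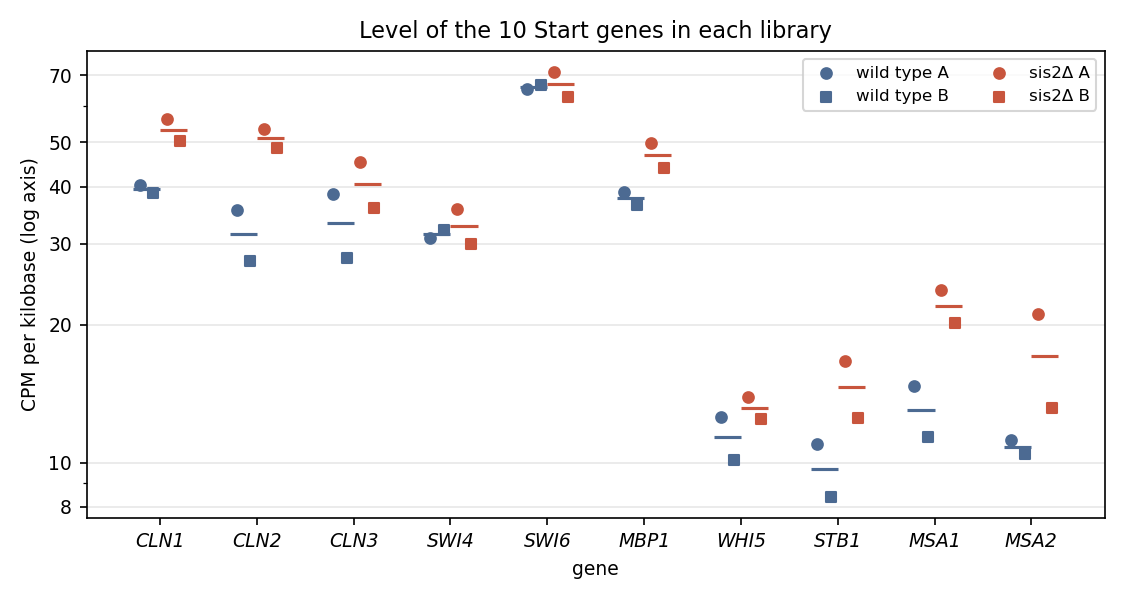
Level of each gene in each library, in TMM-scaled CPM per kilobase of coding sequence on a log axis, with wild-type libraries in blue, *sis2Δ* libraries in red and a line at the mean of each strain (n = 2). *SWI6* is highest at 62.9 to 71.2, and for all 10 genes *sis2Δ* A lies above *sis2Δ* B.

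*SWI4* and *SWI6*, the DNA-binding and the shared subunit of SBF, had the smallest differences. *SWI4* (YER111C, minus strand of chromosome V from 382595 to 385876) measured 101 and 106 CPM in the wild type and 118 and 98.5 CPM in *sis2Δ*. *SWI6* (YLR182W, plus strand of chromosome XII from 517940 to 520351) measured 158 and 161 CPM in the wild type and 172 and 152 CPM in *sis2Δ*. For both genes the wild-type libraries lay between the 2 *sis2Δ* libraries. The log2 fold changes were 0.06 (SE 0.11, adjusted p = 0.792) and 0.02 (SE 0.11, adjusted p = 0.931), and both became negative, at -0.06 each, without *sis2Δ* A. The number of *SWI4* counts for each *SWI6* count, per base, was 0.472 and 0.483 in the wild type and 0.503 and 0.477 in *sis2Δ*, which overlapped.

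*MBP1* (YDL056W, plus strand of chromosome IV from 352877 to 355378) encodes the DNA-binding subunit of MBF and a protein 32.6% identical to Swi4 over 797 aligned positions. It measured 97.7 and 91.1 CPM in the wild type and 124 and 110 CPM in *sis2Δ*. The strains did not overlap, and the log2 fold change was 0.31 (SE 0.11), but the adjusted p was 0.119 and *MBP1* was not called. Leaving out *sis2Δ* B brought the adjusted p to 0.0344. Relative to *SWI6*, *MBP1* gave 0.597 and 0.546 counts per base in the wild type and 0.698 in each *sis2Δ* library. Relative to *MBP1*, *SWI4* gave 0.790 and 0.883 in the wild type and 0.720 and 0.683 in *sis2Δ*. The transcripts of *MBP1* thus lay higher against *SWI4*, and against the shared subunit *SWI6*, in each *sis2Δ* library than in either wild-type library. No p below 0.333 was possible by exact permutation.

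**Figure D4:**
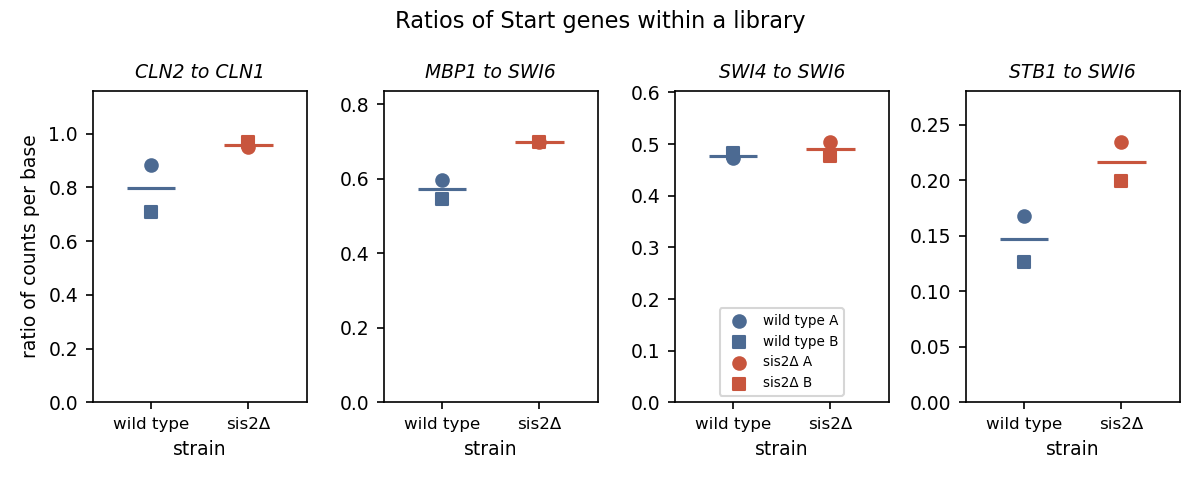
Ratio of the counts per coding base of 2 genes within each library, with wild-type libraries in blue, *sis2Δ* libraries in red and a line at the mean of each strain (n = 2); each vertical axis starts at 0. The ratios of *CLN2* to *CLN1*, *MBP1* to *SWI6* and *STB1* to *SWI6* are higher in both *sis2Δ* libraries, and that of *SWI4* to *SWI6* overlaps.

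*WHI5* (YOR083W, plus strand of chromosome XV from 479533 to 480420) encodes the repressor that holds SBF inactive until Cln3 acts. It measured 11.2 and 8.999 CPM in the wild type and 12.4 and 11.0 CPM in *sis2Δ*, from 170 to 304 counts in a library. The strains overlapped, with a log2 fold change of 0.20 (SE 0.16, adjusted p = 0.511). The ratio of *CLN3* to *WHI5*, activator to repressor, was 3.07 and 2.76 in the wild type and 3.25 and 2.90 in *sis2Δ* and also overlapped. The Whi5 protein of 295 residues holds 12 serine or threonine residues followed by proline, the minimal site of Cdc28, or 4.07 per 100 residues. Stb1, Msa1 and Msa2 hold between 3.86 and 4.29 per 100, against 0.623 to 2.07 in the 6 cyclins and factor subunits.

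Of the proteins that bind the factors, *MSA1* (YOR066W, plus strand of chromosome XV from 449436 to 451325) had the largest change of the 10 genes. Msa1 and its paralogue Msa2 associate with SBF and MBF and are known to affect the timing of G1 transcription. *MSA1* measured 27.7 and 21.5 CPM in the wild type and 44.9 and 38.1 CPM in *sis2Δ*. The lower *sis2Δ* library lay well above the higher wild-type library. The fold change was 1.68 (log2 0.75, SE 0.14, adjusted p = 0.0105). Without *sis2Δ* A the log2 fold change was 0.63 with an adjusted p of 0.0608, and the call was lost.

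*MSA2* (YKR077W, plus strand of chromosome XI from 583653 to 584744) encodes a protein 34.5% identical to Msa1 over 351 aligned positions. It measured 12.2 and 11.4 CPM in the wild type and 23.0 and 14.4 CPM in *sis2Δ*. The wild-type cultures agreed closely while *sis2Δ* A was far above *sis2Δ* B. The log2 fold change was 0.65 (SE 0.20, adjusted p = 0.0753), which fell to 0.29 without *sis2Δ* A and was 0.96 without *sis2Δ* B (adjusted p = 0.0029). It was called without wild-type A (adjusted p = 0.0295), by DESeq2 (0.041) and with other scalings, so its call depended on the processing. *MSA2* lies 5529 bases from the deleted gene. Between them, YKR073C next to *SIS2* had 70 and 20 counts in the wild type and 3 and 4 in *sis2Δ*. The genes nearer to *MSA2*, *AIM29*, YKR075C and *ECM4*, had log2 fold changes of -0.03, 0.03 and -0.16, and none was called. Per coding base, there were 1.31 and 1.09 *MSA1* counts for each *MSA2* count in the wild type and 1.13 and 1.53 in *sis2Δ*, which overlapped.

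*STB1* (YNL309W, plus strand of chromosome XIV from 52662 to 53924) encodes a protein that binds Swi6 and the Sin3 co-repressor and that is a target of the Cln kinases. It measured 13.9 and 10.6 CPM in the wild type and 21.1 and 15.8 CPM in *sis2Δ*. The strains were separated, with wide gaps between the cultures of each strain. The log2 fold change was 0.57 (SE 0.18, adjusted p = 0.0824), and *STB1* was called without wild-type A (adjusted p = 0.0128) or without *sis2Δ* B (0.0164). For each *SWI6* count there were 0.168 and 0.126 *STB1* counts per base in the wild type and 0.234 and 0.199 in *sis2Δ*.

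Levels of the 10 genes were compared with each other only per coding length. In the wild type, per kilobase of coding sequence, *SWI6* stood at 66.0 ± 0.883 CPM (SD, n = 2), apart from all others. *CLN1* followed at 39.6 ± 1.08, *MBP1* at 37.7 ± 1.85, *CLN3* at 33.3 ± 7.53, *CLN2* at 31.6 ± 5.68 and *SWI4* at 31.5 ± 0.935 CPM per kilobase. The libraries of each of these 5 genes overlapped those of its neighbour in the order. The other 4 genes lay together below them, with *MSA1* at 13.0 ± 2.34, *WHI5* at 11.4 ± 1.73, *MSA2* at 10.8 ± 0.552 and *STB1* at 9.70 ± 1.80 CPM per kilobase. In *sis2Δ*, *CLN1* at 53.2 ± 4.05 and *CLN2* at 51.0 ± 3.29 CPM per kilobase came next after *SWI6* and overlapped each other, and *MBP1* followed at 46.8 ± 4.12, with libraries that overlapped those of *CLN2*. *WHI5* was lowest there, at 13.2 ± 1.04, while *STB1* stood at 14.6 ± 2.96 CPM per kilobase, and these overlapped.

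Between the cultures of a strain, most of the 10 genes differed in the same direction. Replicate A of *sis2Δ* lay above replicate B for all 10, where 47.9% of all genes tested did so. Wild-type A lay above wild-type B for 8 of the 10, where 49.3% of all genes did so. The median absolute log2 difference between replicates was 0.21 over the 10 genes in each strain, against 0.11 over all genes in the wild type and 0.15 in *sis2Δ*. The part of this shared spread in the differences between strains was not tested.

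For the called genes, the nearest profiles among all genes tested were sought by the Euclidean distance between log2 CPM values centred over the 4 libraries. Nearest to *CLN1* were *CSI2* (distance 0.021), itself on the list of SBF targets below,, *SAP185* (0.0424) and *MRA1* (0.0487). *CLN2* had YDR261C-D (0.0667), *CSR1* (0.0802) and *MSA1* (0.0932) as nearest genes. *RIM4* (0.0655), *CLN2* (0.0932) and *CSR1* (0.0934) were nearest to *MSA1*. With 4 libraries this likeness rests mostly on the strain difference itself.

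Other genes of the pathway were taken from lists written from general knowledge of the yeast cell cycle, with earlier results of these data known. The counts of each list below stand beside those of all genes tested. Of these, 2.72% were called higher and 3.36% lower, with a median log2 fold change of -0.0050. Of 18 known SBF target genes other than the 10, 15 were higher and 3 lower in *sis2Δ*, with a median log2 fold change of 0.47. Of these 18, 9 were called and all 9 were higher. *PCL1*, which encodes a G1 cyclin of the Pho85 kinase, measured 5.33 and 5.03 CPM in the wild type and 14.2 and 12.1 CPM in *sis2Δ*, a log2 fold change of 1.33 (SE 0.17). *SRL1*, a cell wall mannoprotein gene, measured 154.5 and 134 CPM in the wild type and 410 and 285 CPM in *sis2Δ*, a log2 fold change of 1.27 (SE 0.16). *YOX1*, which encodes a repressor of M/G1 genes such as *CLN3* and *SWI4*, had a log2 fold change of 1.13 (SE 0.23). All 3 stayed called with each library left out, and the list had between 6 and 12 calls. *OCH1*, a mannosyltransferase gene, and *KRE6*, of cell wall glucan synthesis, lay lower in both *sis2Δ* libraries, with log2 fold changes of -0.26 and -0.30, and were not called.

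Of 27 known MBF target genes, 21 were higher and 6 lower, with a median log2 fold change of 0.20. *RNR1*, *CDC21* and *MCD1* were called higher. *RNR1*, the large subunit of ribonucleotide reductase, measured 87.9 and 67.8 CPM in the wild type and 106 and 138 CPM in *sis2Δ*, a log2 fold change of 0.64 (SE 0.15). *MCD1*, of cohesin, had a log2 fold change of 0.53 (SE 0.12). Without wild-type A, wild-type B or *sis2Δ* A only 1 gene of the list was called. *CLB5* and *CLB6*, the S-phase cyclins of this list, had log2 fold changes of 0.12 (adjusted p = 0.642) and 0.88 (adjusted p = 0.0788) and were not called by edgeR's test. An SCB core lay upstream of 16 of the 18 SBF targets and 8 of the 27 MBF targets, and an MCB core upstream of 4 of the 18 and 24 of the 27, so the lists held different elements.

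Among the tested genes that are annotated as protein-coding in the nuclear genome and have a full window, 109 held at least 2 SCB cores, *CLN2* among them. The other tested genes were left out here, and the window was again the 800 bases upstream. Of these 109, 11.9% were called higher and 4.59% lower, with a median log2 fold change of 0.04. The 872 genes with 1 SCB core gave 2.75% and 2.64%, and the 4690 genes with none gave 2.58% and 3.62%. Genes with at least 2 MCB cores, 42 in number, had a median log2 fold change of 0.14, and 7.14% of them were called higher and 2.38% lower. The 399 genes with 1 MCB core gave 4.26% and 2.01%, and the 5230 genes with none gave 2.64% and 3.61%. Genes that share a promoter also share a window, and genes are not independent replicates, so these shares are a description.

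Among 18 genes that act with the Start genes, *FAR1* and *MCM1* were called, both higher, and the median log2 fold change was 0.07. *FAR1*, the inhibitor through which pheromone blocks the Cln kinases, measured 65.1 and 69.9 CPM in the wild type and 100.2 and 101 CPM in *sis2Δ*, a log2 fold change of 0.58 (SE 0.10, adjusted p = 0.0064), and it stayed called with each library left out. *MCM1*, whose factor controls *CLN3* and *SWI4* at M/G1, had a log2 fold change of 0.71 that lost its call without *sis2Δ* A (0.35, adjusted p = 0.156). *SIC1*, the inhibitor of S-phase kinases that Cln1 and Cln2 help to destroy, had a log2 fold change of 0.50 (SE 0.15, adjusted p = 0.0729). *CDC28*, the kinase bound by all 3 cyclins, measured 78.2 and 77.9 CPM in the wild type and 88.6 and 88.0 CPM in *sis2Δ*, with a log2 fold change of 0.18 that was not called (adjusted p = 0.337). The ubiquitin pathway genes *CDC4*, *CDC34*, *CDC53*, *SKP1* and *GRR1* had log2 fold changes between -0.09 and 0.06, with none called. The list had 1 call without *sis2Δ* A and 5 without *sis2Δ* B.

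Genes of other phases were set beside these, in short lists where 1 call weighs much against the 2.72% of all genes called higher. Of 18 M/G1 genes, 14 were higher and *CTS1*, *EGT2* and *AMN1*, of daughter cell separation and mitotic exit, were called, with a median log2 fold change of 0.24. That list had 0 calls without wild-type B and 7 without *sis2Δ* B. Of 9 histone genes, *HHO1* was called, and the median was 0.04. *HHO1* was not called without wild-type B or either *sis2Δ* library. Of 15 G2/M genes, 13 were higher with a median of 0.22, and 0 were called by edgeR with strain as the only term or by DESeq2, while 6 had an unadjusted p under 0.05. Leaving out wild-type A gave 1 call there and leaving out *sis2Δ* B gave 3.

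Of 12 pheromone response genes, all were higher and 9 were called, with a median log2 fold change of 0.56. *FIG1*, *AGA1* and *FUS2*, of mating cell adhesion and fusion, had log2 fold changes of 1.65 (SE 0.33), 1.38 (SE 0.14) and 1.29 (SE 0.15). The value of *FIG1* rested on low counts, 22 and 20 in the wild type and 70 and 59 in *sis2Δ*. Without wild-type A, 5 of the list were called, without wild-type B 4 and without *sis2Δ* A 3. The summed level of the 12 pheromone response genes was 571 and 528 CPM in the wild type and 871 and 782 CPM in *sis2Δ*. Pheromone signalling is known to act on the Cln kinases through Far1. The level of these genes was higher in the same libraries as *CLN1*, *CLN2* and *MSA1*, and its part in their levels was not tested.

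**Figure D5:**
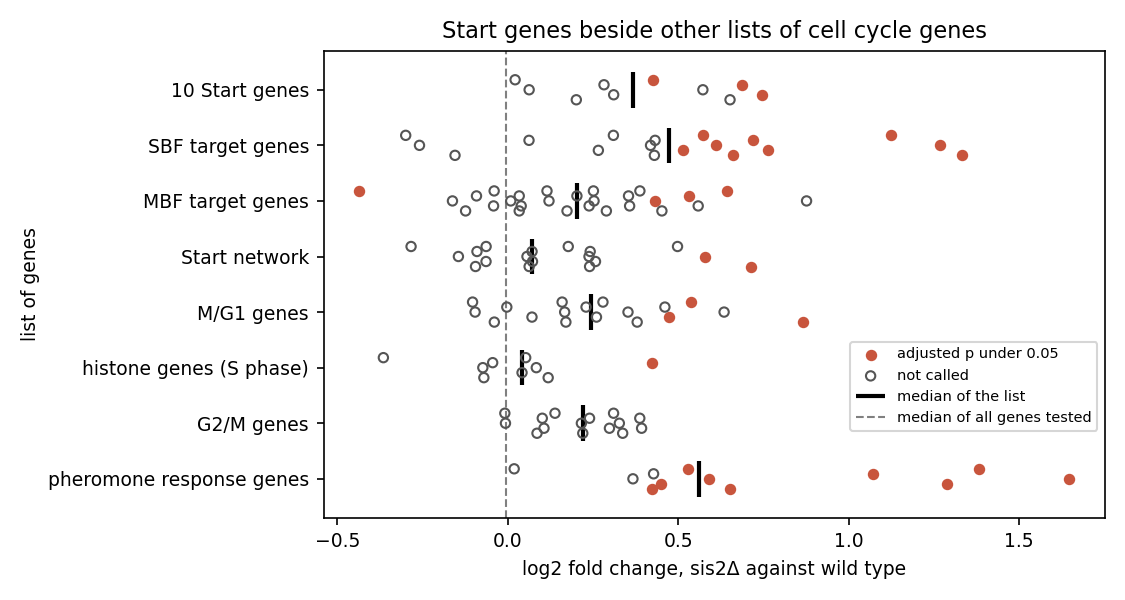
Log2 fold change in *sis2Δ* against the wild type of each tested gene in the 10 Start genes and in 7 other lists (1 point a gene, filled red where the adjusted p is under 0.05), with the median of each list as a black bar and the median of all genes tested as a dashed line. The medians of the Start genes (0.37), the SBF targets (0.47) and the pheromone response genes (0.56) lie farther to the right than those of the histone genes (0.04) and of the genes that act with the Start genes (0.07).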

How the data were processed

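The authors removed adaptors and low-quality bases with Cutadapt 3.7, mapped the reads to R64 with RNA STAR 2.7.8a and counted them per gene with featureCounts 2.0.1 as reverse-stranded. The counts were deposited without normalization, and the gene annotation and the treatment of reads with several matches are not given in the sources used here. The authors' table of limma-voom results (limma 3.48.0), which holds fold changes and p-values, was not used. The library ending in a Greek letter was read as *sis2Δ* B.

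edgeR 4.0.16 (R 4.3.3) was run on the counts of all 4 libraries with strain as the only term. Its adjusted p-values weigh the strain difference against the spread between cultures as modelled across genes. Alternatives used limma 3.58.1 (limma-voom), DESeq2 1.42.0, other scalings and filters, the legacy fit, the replicate letter as a block and each library left out. A fit with 3 libraries assumes that the lone library of a strain varies like those of the other. Depth was 19001619 to 28069619 counts a library, at which 3 counts are 0.107 to 0.158 CPM, counting error only. Names and sequences are from RefSeq's release of R64, whose gene annotation comes from SGD and held 6008 of the 6692 genes. Proteins were translated from it and aligned globally (BLOSUM62, Biopython 1.88). The fits were tested on simulated data.

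The members and lists were chosen with earlier results of these data known. Named were the 10 members, *SIS2*, the nearest profiles and the genes between *SIS2* and *MSA2*. The called genes of each list were also named (the 3 largest changes where more passed), except for the a-specific list, whose calls were only counted. *OCH1*, *KRE6*, *CLB5*, *CLB6*, *CDC21*, *SIC1*, *CDC28* and the ubiquitin pathway genes were named after their values were seen. A result that the rule would name is not reported here.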

Additional observations from a re-analysis of the deposited data

How the results depend on the processing

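Under the 8 alternatives with all 4 libraries, *CLN1*, *CLN2* and *MSA1* stayed called and each of the 10 genes kept its direction. The median log2 fold change of all genes was 0.05 with library size alone, which put 59.7% of calls on the higher side (44.8% after TMM scaling). *MSA2* was also called with DESeq2 (adjusted p = 0.041), median-ratio size factors (0.0434) and library size alone (0.0466). With each library left out, the calls over all genes ranged from 190 to 985 and those among the 10 genes from 1 to 6. Log2 fold changes with 1 library left out ranged from -0.058 (without *sis2Δ* A) to 0.187 for *SWI4*, from -0.059 (without *sis2Δ* A) to 0.110 for *SWI6* and from -0.074 (without *sis2Δ* A) to 0.143 for YKR075C. That of *AIM29* ranged from -0.097 to 0.063, turning positive without wild-type B (0.063) or *sis2Δ* A (0.0064) and with library size alone (0.024). The causes were not tested.

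The labels do not say that replicate letters mark a shared day or batch. The deviations of replicate A from the strain means correlated at 0.0719 across genes. With the letter as a replicate block, 788 genes and 6 of the 10 were called, adding *MBP1* (adjusted p = 0.0455), *STB1* (0.0017) and *MSA2* (0.0005). The block also raised the calls to 9 of the MBF targets, 6 of the M/G1, 2 of the histone and 4 of the G2/M genes. With 2 cultures a strain, replicates differed beyond counting error (chi-square divided by its degrees of freedom 20.4 for the wild type, 60.3 for *sis2Δ*).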
